A study of Mus musculus with 41 samples.

Results

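The genes of respiratory complex I and of the factors that assemble it were followed through the hippocampus of 41 mice. Members were all genes whose symbol in the platform annotation begins with Nduf followed by a, ab, af, b, c, s or v and a number, each read from its brightest probe set over the 41 arrays. The rule found 44 of 18194 genes on the array, in 88 of 45101 probe sets. Of these, 34 encode subunits of complex I and 8 encode assembly factors of the Ndufaf series. The other 2, Ndufa4 and Ndufa4l2, carry the family name but stand outside complex I, since Ndufa4 is now counted as a subunit of cytochrome c oxidase. Genes whose probe sets are shared with a copy or pseudogene in the annotation fell outside the rule, among them Ndufs6 and Ndufa11.

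All mice were male, of the inbred C57BL/6J strain, untreated and 10 weeks old when testing began, and each gave 1 RNA sample and 1 Affymetrix array. The mice passed 5 tests of learning and memory between weeks 10 and 38 of age, and hippocampal RNA followed 1 month after testing ended. Agreement of 2 ranking systems defined 5 mice with high, 12 with medium and 8 with low cognition, while 14 mice were ranked inconsistently and 2 had incomplete behavioural data. The series asks which genes accompany differences in general cognitive ability between mice of 1 genetic background.

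Complex I, NADH:ubiquinone oxidoreductase, is the entry point of electrons from NADH into the respiratory chain of mitochondria and a proton pump. Electrons pass from the NADH-oxidising N module through a chain of iron-sulphur clusters to the quinone-binding Q module, and the membrane arm couples this to proton pumping. The membrane core is encoded by mitochondrial DNA, the other subunits by the nucleus, and the parts are joined stepwise by assembly factors that do not remain in the finished enzyme. Neurons depend on this chain for most of their ATP, and defects of complex I are a frequent cause of Leigh syndrome and other disorders of the nervous system.

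The promoters of these nuclear genes were searched for the core motifs of factors known to act on mitochondrial genes. RefSeq promoters (GRCm38.p6, 250 bases before to 50 after the start) were at hand for 39 of the 44 genes. The run GCGCANGCG, the core of the site of nuclear respiratory factor NRF1, was sought on both strands. It lay in 8 of 39 member promoters (20.5%) and in 7.03% of the promoters of all 27025 genes. The 8 genes were Ndufa5, Ndufa6, Ndufa8, Ndufb4, Ndufb10, Ndufs5, Ndufaf4 and Ndufaf5. The run CCGGAAG, the core bound by ETS factors such as GABPA, lay in 6 of 39 (15.4%) against 9.93% of all genes, and these 6 included Ndufaf1 and Ndufs8. AAGATGG, the YY1 core, lay in 7 of 39 (17.9%) against 7.28%, Ndufa9 among them. GGGCGG, the SP1 core, lay in 21 of 39 (53.8%) against 38.2%. None of these runs contains another, though CCGGAAG and AAGATGG can overlap by AAG, and a promoter with several of them was counted for each. A match is a run of letters, not a measured binding site. The windows below come from 4 of these promoters and are given 5′ to 3′ along the gene's strand, with the NRF1 run (in either orientation) or, for Ndufaf1, the ETS run in capitals. Ndufaf1 is shown because it had the smallest p-value of the family, and the others because they carry the NRF1 run upstream of the start in the membrane arm (Ndufa8, Ndufs5) and among the assembly factors (Ndufaf4). They lie at chr2:119662835-119662882, chr2:36049339-36049397, chr4:123718246-123718314 (all minus strand) and chr4:24897940-24898008 (plus strand).
Ndufaf1: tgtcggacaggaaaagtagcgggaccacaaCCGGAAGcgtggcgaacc
Ndufa8: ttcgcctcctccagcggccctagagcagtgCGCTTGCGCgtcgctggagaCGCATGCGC
Ndufs5: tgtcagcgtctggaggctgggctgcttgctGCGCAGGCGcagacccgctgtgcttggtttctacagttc
Ndufaf4: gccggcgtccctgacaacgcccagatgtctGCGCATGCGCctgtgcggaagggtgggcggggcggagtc

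The arrays were compared on a scale of log2(intensity + 16) after quantile normalization, on which a difference of 0.10 in a bright gene is a fold of 1.07 and changes of dim genes are understated. Probe sets below the median of the mean intensity were set aside, and 22519 were tested. Ndufb4, whose brighter probe sets are shared with copies, was the 1 member below this filter, so 43 members and 33 subunits were tested. Hippocampal principal neuron markers were present on all arrays, with mean levels of 8.99 to 9.10 in high, 7.89 to 9.23 in medium and 8.95 to 9.17 in low mice. The value of 7.89 belonged to medium replicate 9, in which striatal markers averaged 8.64 against at most 7.52 in any low mouse. Choroid plexus markers varied widely, from 5.84 to 6.20 in high, 5.84 to 9.18 in medium and 5.69 to 9.26 in low mice. Clustering on bacterial spike-in controls, with the number of sets fixed at 3, gave sets of 7, 10 and 24 arrays. Of the high mice, 0, 1 and 4 lay in these sets. Fewer cells of a type and less RNA per cell cannot be told apart in such tissue samples.

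No complex I gene passed the threshold of 0.05 for the adjusted p (limma, Benjamini-Hochberg over all 22519 probe sets) in any comparison of the cognition groups. The smallest adjusted p was 0.284, for the assembly factor Ndufaf1 in high against medium mice. For high against low, 0 of 43 members passed, beside 0.00888% of all tested probe sets. For high against medium it was 0 of 43 beside 0.0311%, for medium against low 0 of 43 beside 0%, and for the ordered trend over low, medium and high classes 0 of 43 beside 0.00444%. So few calls on the whole array leave little to read from the zeros of the family.

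Under quantile normalization, and taken 1 gene at a time, the intervals bound what could have been missed on the brightest probe set of each gene. They do not bound its other probe sets. For Ndufa12 the interval in high against low ended at 0.11, and another tested probe set, given below, differed by more. In high against low mice, the 95% interval of the difference stayed within 1.2-fold in either direction for 36 of 43 members. The 7 members with wider intervals were Ndufs8, Ndufb1, Ndufaf1, Ndufaf4, Ndufaf6, Ndufaf8 and Ndufa4l2. The count was 38 of 43 for high against medium and 40 of 43 for medium against low. These counts were made on the brightest probe sets under quantile normalization only, and differences moved with the scaling. With arrays centred on their medians the high against low difference of Ndufa10 was 0.20, against 0.10 with quantile normalization. Standard errors in high against low lay between 0.038 for Ndufa12 and 0.15 for Ndufs8 (median 0.059), with the same arrays for every member. In every comparison of 2 groups the levels of the groups overlapped for every member. Overlap was not counted over all tested probe sets, so it cannot be read as a trait of these genes.

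**Figure D1:**
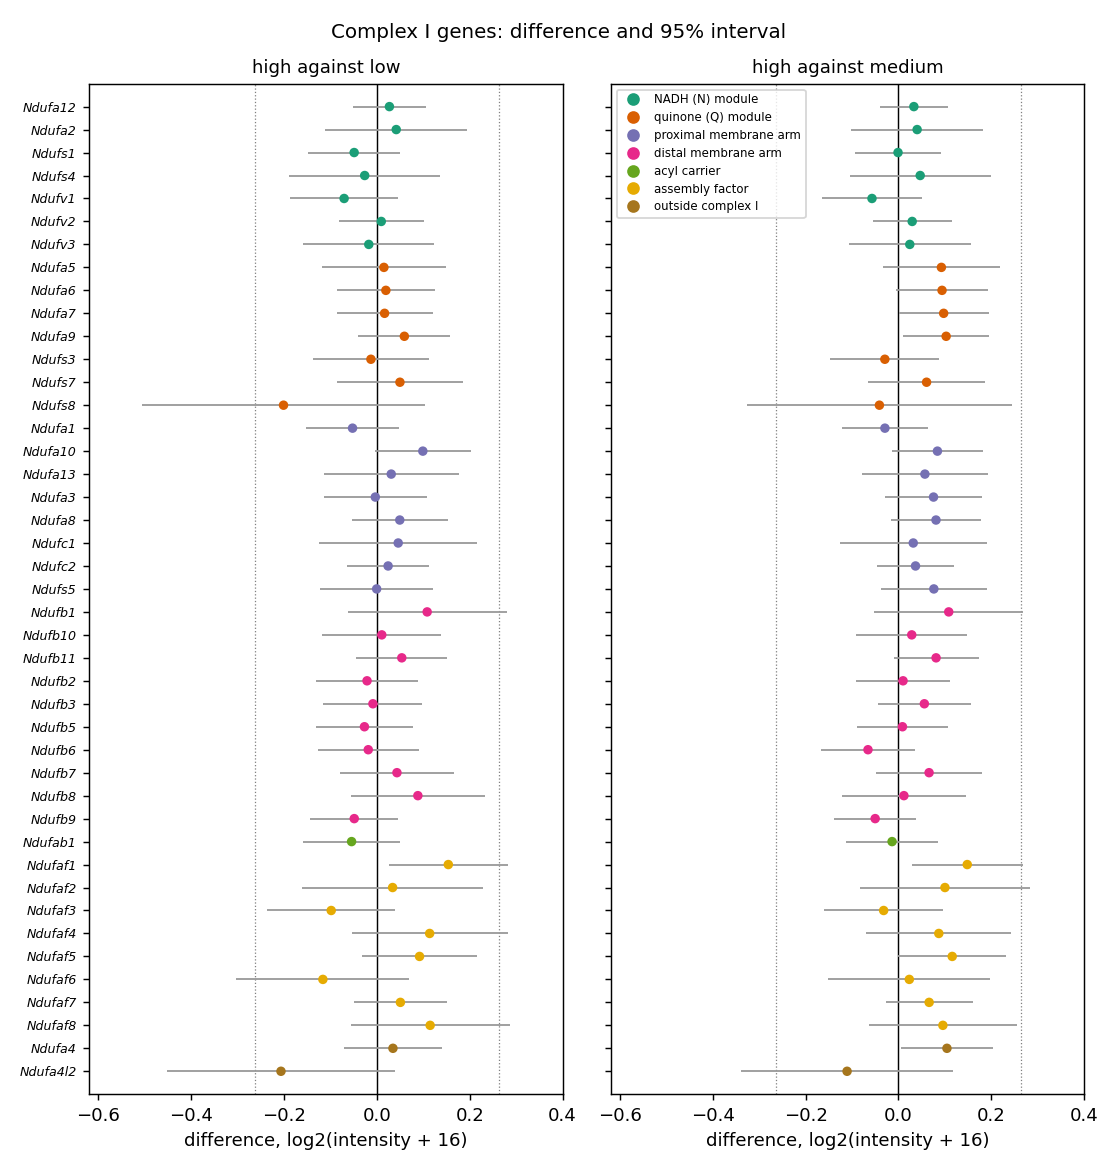
Difference in level of each tested complex I gene between high and low mice (left) and between high and medium mice (right), on the log2(intensity + 16) scale, with 95% intervals from limma. Genes run by role from the NADH module at the top to genes outside complex I at the bottom, and dotted lines mark 1.2-fold. Intervals that exclude 0 belong to Ndufaf1 on the left and to Ndufaf1, Ndufa9, Ndufa7 and Ndufa4 on the right, and none passed the adjusted threshold.

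Ndufaf1 stood at the head of the family. It encodes a chaperone of the mitochondrial complex that builds the membrane arm. Its level was 9.04, 8.93, 9.20, 8.99 and 9.09 in the 5 high mice, against a lowest, median and highest value of 8.75, 8.90 and 9.04 in medium mice and 8.73, 8.91 and 9.07 in low mice. All 5 high values lay above both medians, but 3 of them lay within the range of the low mice. The difference was 0.15 ± 0.06 (SE; n = 5 and 8) against low mice, a fold of 1.11, with an unadjusted limma p of 0.0205 and an adjusted p of 0.553. Against medium mice it was 0.15 ± 0.06 with an unadjusted limma p of 0.0172. The slope over the ordered classes was 0.07 ± 0.03 per class, with an unadjusted limma p of 0.0395. Both pairs share the high mice and are not independent. Without arrays of bright choroid plexus markers the difference against low mice was 0.085. With arrays centred on their medians it was 0.21. Choroid plexus markers averaged at most 6.20 in any high mouse. Low replicate 7, with the lowest Ndufaf1 level of all arrays, had 9.26. The part of choroid plexus content in the Ndufaf1 difference was not tested.

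Ndufaf1 was the only 1 of 43 members with an unadjusted p under 0.05 and a higher level in high than in low mice, where 4.59% of all tested probe sets met this rule. In the lower direction it was 0 of 43 beside 3.58%. For high against medium, 4 of 43 members met it in the higher direction beside 7.31% (Ndufaf1, Ndufa9, Ndufa4 and Ndufa7), and 0 of 43 in the lower direction beside 5.92%. For medium against low no member met it in either direction, beside 1.59% and 1.52%. For the ordered trend it was 1 of 43 in the higher direction beside 3.41%, and 0 of 43 in the lower beside 2.51%. The members' shares were near or below those of the whole array.

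**Figure D2:**
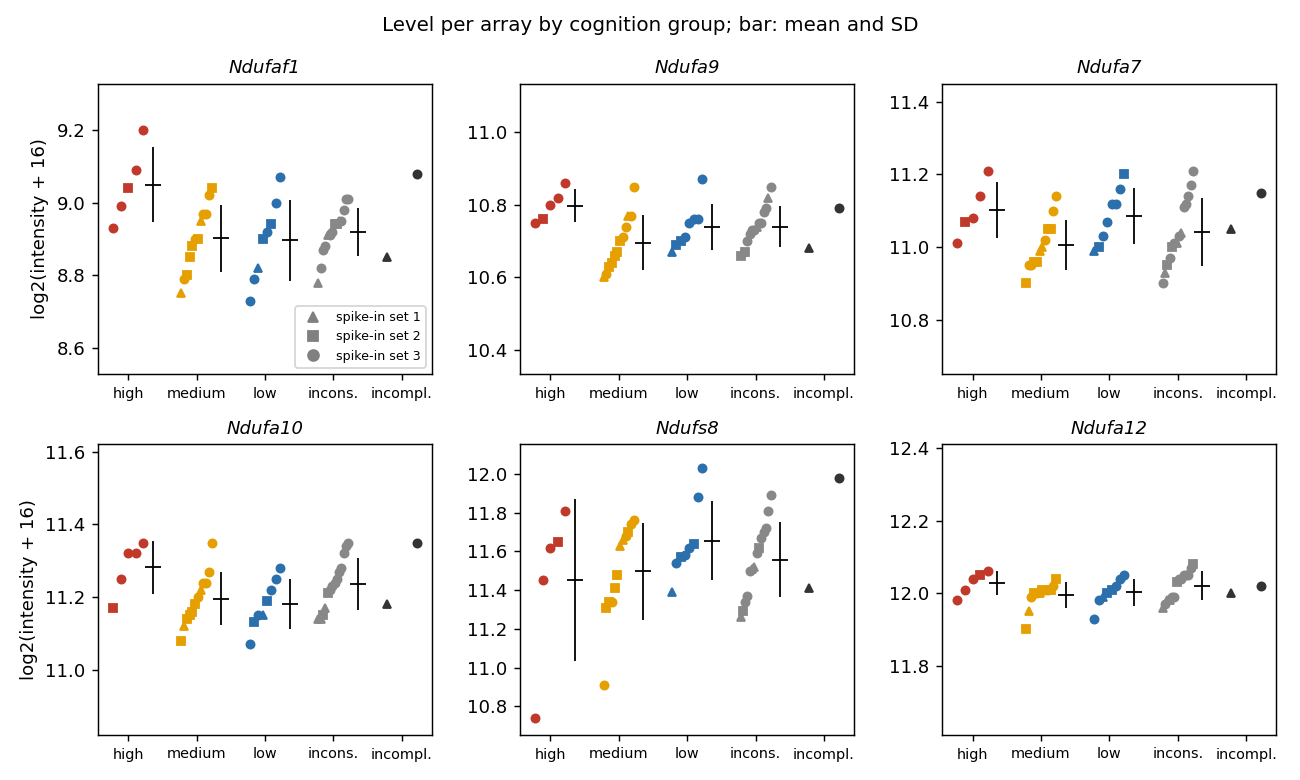
Level of 6 complex I genes per array on the log2(intensity + 16) scale, by cognition group (high, medium, low, inconsistently ranked, incomplete data), 1 point per mouse, with shapes for the 3 spike-in sets and bars for the mean and SD of groups of more than 2. Ndufaf1 in high mice runs from 8.93 to 9.20 and overlaps all other groups, and the Ndufs8 panel, which has a wider axis than the others, shows 1 high mouse at 10.74 and 1 medium mouse at 10.91 far below the rest.

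The N module binds NADH and holds the flavin that takes its electrons. Ndufv1, the subunit that carries flavin and NADH site, read 10.84, 10.69, 10.84, 10.69 and 10.80 in high mice, against 10.72, 10.83 and 10.99 (lowest, median, highest) in low mice. Its difference of -0.07 ± 0.06 was the lowest of the module, with an adjusted limma p of 0.779. Ndufs1, the large iron-sulphur subunit of this module, differed by -0.05 ± 0.05 and Ndufv2, which holds a further cluster, by 0.0093 ± 0.044. The accessory subunit Ndufa12 was the steadiest of all subunits, with an SD of 0.038 over the 41 arrays, and only 0.0133% of all tested probe sets had a smaller one. Ndufs4, whose loss in mice gives a Leigh-like disease, was at 9.61 ± 0.06 in high, 9.56 ± 0.10 in medium and 9.64 ± 0.20 in low mice (SD, n = 5, 12 and 8). Its highest value, 10.02, was that of low replicate 5, the array with the lowest median signal of all. Of 7 tested N module genes, 3 lay above 0 in high against low and 5 in high against medium.

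The Q module passes electrons to ubiquinone, and its accessory subunits Ndufa9, Ndufa7 and Ndufa6 had the smallest p-values among subunits in high against medium mice. Ndufa9, an accessory subunit at the junction with the membrane arm, read 10.76, 10.75, 10.86, 10.80 and 10.82 in high mice, against 10.60, 10.69 and 10.85 in medium mice. All 5 high values exceeded the medium median, and 1 of them the highest medium value. The difference was 0.10 ± 0.05 (SE; n = 5 and 12), with an adjusted limma p of 0.331. Ndufa7 read 11.07, 11.21, 11.01, 11.14 and 11.08 in high mice, against 10.90, 11.00 and 11.14 in medium mice, a difference of 0.10 ± 0.05 with an adjusted limma p of 0.375. Averaged over all 5 probe sets of the gene, the Ndufa7 difference was 0.19 with an adjusted limma p of 0.0948, the smallest of any member under any setting. Ndufa6, a small LYR-motif subunit, differed by 0.09 ± 0.05 with an adjusted limma p of 0.405. In medium against low mice the same 2 genes had differences of -0.08 ± 0.04 (Ndufa7) and -0.07 ± 0.04 (Ndufa6), with the medium mice shared between the pairs and adjusted limma p of 0.998 for each. The core subunits Ndufs3 and Ndufs7, of which Ndufs7 carries the last iron-sulphur cluster before ubiquinone, differed by -0.01 ± 0.06 and 0.05 ± 0.07 in high against low.

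Ndufs8, the Q module core subunit with the iron-sulphur clusters next to that of Ndufs7, depended on the probe set. The brightest probe set gave 11.65, 11.81, 10.74, 11.45 and 11.62 in high mice, against 11.39, 11.60 and 12.03 in low mice. High replicate 3 at 10.74 and medium replicate 3 at 10.91 were the lowest of all 41 arrays. The difference in high against low was -0.20 ± 0.15, with an adjusted limma p of 0.755, and without high replicate 3 it was -0.023. In high replicate 3 the other bright probe sets of the gene read 11.40 and 11.35, inside the range of the high mice. All 4 of the other probe sets with levels above 9 gave a positive difference, from 0.07 ± 0.07 to 0.20 ± 0.09, and the latter had an adjusted limma p of 0.581. The brightest set correlated with the others at 0.10 to 0.25 over the 41 arrays, while 3 of the others correlated among themselves at 0.78 to 0.89. The direction for Ndufs8 was therefore not settled by these arrays.

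The proximal membrane arm anchors the Q module to the proton channels. Ndufa10, an accessory subunit with a nucleoside kinase fold, had the smallest p among subunits in high against low. It read 11.17, 11.32, 11.32, 11.35 and 11.25 in high mice, against 11.07, 11.17 and 11.28 in low mice. Of the high mice, 3 lay above every low mouse. The difference was 0.10 ± 0.05 (SE; n = 5 and 8), with an adjusted limma p of 0.630. A dimmer probe set of Ndufa10 gave -0.06 ± 0.11 and ran against the bright one over the arrays (r = -0.36). Ndufa1, an X-linked membrane subunit, differed by -0.05 ± 0.05 with an adjusted limma p of 0.812. Ndufa3 had 11.81, 11.89, 11.77, 11.84 and 11.84 in high mice, and its difference in medium against low was -0.08 ± 0.04. In high against medium, 7 of 8 genes of this arm lay above 0 with a median of 0.066.

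The distal membrane arm holds the pumping subunits farthest from the quinone site, and 10 of its 11 genes were tested. Ndufb1, a small membrane subunit, read 7.72, 7.79, 7.59, 7.66 and 7.74 in high mice, against 7.36, 7.57 and 8.06 in low mice. The difference was 0.11 ± 0.08 with an adjusted limma p of 0.769, and the value of 8.06 came again from low replicate 5, without which the difference was 0.18. Ndufb8, often used on protein blots as a sign of assembled complex I, differed by 0.09 ± 0.07 with an adjusted limma p of 0.776. Its lowest value, 10.84 in low replicate 5, lay well below the median of 11.37 in low mice, and without that array the difference was 0.023. Ndufb6 read 10.85, 10.86, 10.85, 10.87 and 10.84 in high mice, against 10.80, 10.90 and 11.06 in medium mice. This difference of -0.07 ± 0.05 and that of the LYR-motif subunit Ndufb9, -0.05 ± 0.04, were the lowest of the arm in high against medium, with adjusted limma p of 0.585 and 0.640. Ndufab1, the mitochondrial acyl carrier protein bound by such LYR subunits, differed by -0.05 ± 0.05 in high against low.

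As a group, 18 of 33 tested subunits lay above 0 in high against low mice, with a median difference of 0.010 beside 0.0050 for all tested probe sets, of which 52.0% lay above 0. In high against medium it was 25 of 33, with a median of 0.037 beside 0.0051 and 51.8%. In medium against low it was 7 of 33, with a median of -0.026 beside -0.00015 and 49.9%. The slope over the classes had a median of -0.0019. These counts depended on scaling in all 3 comparisons. In high against low, 32 of 33 subunits lay above 0 with arrays centred on their medians (median 0.10) and 16 of 33 without normalization (median -0.00027). In high against medium it was 31 of 33 with centred arrays (0.097) and 0 of 33 without normalization (-0.086), and in medium against low 17 of 33 (9.6e-05) and 32 of 33 (0.081). Without normalization all probe sets had a median of -0.17 in high against medium, so relative to all probe sets the subunits stood at 0.032 with quantile normalization and at 0.084 without it. In high against low they stood at 0.0054 with quantile normalization and at 0.061 with either of the others, and in medium against low at -0.026 with each of the 3. With quantile normalization the high against medium median was 0.025 with the spike-in set as a block, 0.052 within spike-in set 2 and 0.016 within spike-in set 3, and 0.029 without medium replicate 9. The mean level of the 33 subunits per array ran from 10.96 to 11.02 in high, 10.89 to 11.00 in medium and 10.91 to 11.05 in low mice, so the ranges overlapped. The lowest high mouse, at 10.961, lay above the medium median of 10.948 and below the low median of 10.964. Group differences of this mean were not tested. Spike-in set 3, with 4 of the 5 high mice, had a mean of 10.98, against 10.94 in set 1 and 10.93 in set 2. The part of these sets in the group differences was not tested beyond the values given.

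Of the 8 assembly factors, 6 lay above 0 in high against low (median 0.071) and 7 in high against medium (median 0.091), and 0 were called. Of all tested probe sets, 52.0% and 51.8% lay above 0 in these comparisons. The counts were made under quantile normalization only. Without normalization the high against medium difference was -0.018 for Ndufaf1 and -0.050 for Ndufaf5. Ndufaf5, which hydroxylates an arginine of NDUFS7 in human cells, read 8.47, 8.27, 8.49, 8.46 and 8.46 in high mice, against 8.13, 8.31 and 8.43 in medium mice. Of the high mice, 4 lay above every medium mouse, and high replicate 2 lay below the medium median. The difference was 0.12 ± 0.06 (SE; n = 5 and 12), with an adjusted limma p of 0.379. Ndufaf8, its partner, differed by 0.10 ± 0.08 and Ndufaf2, a chaperone related in sequence to Ndufa12, by 0.10 ± 0.09. Ndufaf7, a methyltransferase for the Q module, differed by 0.07 ± 0.05. Ndufaf3 and Ndufaf4, which act together on the Q module, differed in high against low by -0.10 ± 0.07 for Ndufaf3 and 0.11 ± 0.08 for Ndufaf4, neither of which passed (adjusted limma p of 0.725 and 0.748). A further probe set of Ndufaf4 gave -0.09 ± 0.06. Ndufaf6 differed by -0.12 ± 0.09 in high against low, where low replicate 7 reached 7.88 and the highest of the other low mice 7.38. That array was among those with bright choroid plexus markers, and the difference was -0.036 without it and 0.0056 without all such arrays.

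Genes that help to build or regulate complex I, taken from a list outside the family, gave 0 calls as well. Their counts were made under quantile normalization only, where 52.0% of all tested probe sets lay above 0 in high against low and 51.8% in high against medium. Of 12 further assembly genes, 9 lay above 0 in high against low and 9, not all of them the same, in high against medium, with medians of 0.044 and 0.087. The partners of Ndufaf1 in the membrane arm assembly complex had differences in high against medium of 0.19 for Tmem126b, 0.17 for Timmdc1, 0.10 for Acad9 and -0.18 for Ecsit, which also serves in innate immune signalling. None of them passed the test, and the smallest adjusted limma p among the 12 was 0.184. Among 13 regulators of mitochondrial genes, 10 lay above 0 in high against low (median 0.069) and 8 in high against medium (median 0.082). The smallest adjusted limma p among them was 0.253, for Polrmt, the mitochondrial RNA polymerase, at -0.16 in high against medium. In that comparison Gabpa, an ETS factor, differed by 0.17 and Yy1 by 0.17, with adjusted limma p of 0.359 and 0.278. Nrf1 differed by 0.038 and Ppargc1a, a coactivator of mitochondrial biogenesis, by -0.032. ND5, a membrane core subunit encoded by mitochondrial DNA, differed by -0.0012 ± 0.064 in high against low and -0.05 ± 0.06 in high against medium.

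Genes of the other respiratory complexes were measured on the same scale. In high against medium mice the median differences were 0.099 for 4 genes of complex II, 0.077 for 9 of complex III, 0.056 for 9 of complex IV and 0.037 for 14 of complex V, beside 0.037 for the subunits of complex I. In high against low mice they were 0.065, 0.060, 0.045 and 0.0098 for complexes II, III, IV and V, beside 0.010 for complex I. All tested probe sets had medians of 0.0051 in high against medium and 0.0050 in high against low. These medians were taken under quantile normalization only, and those of the complex I subunits moved with the scaling. No gene of these lists was called, and differences between the lists were not tested. Uqcr10, a small subunit of complex III, differed by 0.25 in high against medium mice, with an adjusted limma p of 0.125.

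Probe sets shared with copies were measured beside the members. For Ndufb4 with its copies Ndufb4b and Ndufb4c, 1 probe set differed by 0.22 in high against medium with an adjusted limma p of 0.0995, and the brighter one by 0.06 with 0.595. The Ndufa11 and Ndufa11b probe set differed by -0.17, with an adjusted limma p of 0.421, and that of Ndufs6 and Ndufs6b by -0.035. Transcripts of these copies cannot be told apart on the array.

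Across mice, complex I subunits varied little and partly in step. The SD over 41 arrays had a median of 0.084 among the 33 subunits, against 0.17 among all tested probe sets. The subunits are bright, with mean levels of 7.61 to 12.01, and the part of brightness in their small spread was not tested. After Ndufa12 the smallest values were 0.054 for Ndufc2 and 0.056 for Ndufv2. The largest were 0.25 for Ndufs8, 0.14 for Ndufs4 and 0.14 for Ndufc1. Assembly factors, which are dimmer at 7.20 to 9.25, had a median SD of 0.12. The extremes of the family gathered in 1 array. Low replicate 5 held the lowest level of 9 members and the highest of 7, more than any other array.

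Over the 528 pairs of tested subunits the median Pearson r across the 41 arrays was 0.21, with quartiles of 0.046 and 0.37, and 79.9% of pairs lay above 0. Over all pairs of the 11237 genes with a tested probe set the median was 0.0029, and 50.5% lay above 0. All pairs share the same arrays and their normalization, so these are descriptions. Within spike-in sets 1, 2 and 3 the median among subunits was 0.13, 0.14 and 0.19. By module it was 0.32 in the proximal arm, 0.27 in the distal arm, 0.22 in the Q module and 0.18 in the N module. The closest pairs were Ndufb10 with Ndufv3 (r = 0.77), Ndufb11 with Ndufs7 (0.70) and Ndufb2 with Ndufv3 (0.69), which lie in different modules. Ndufs1 and Ndufb9 ran against several others, such as Ndufs1 with Ndufc1 (-0.55) and Ndufb9 with Ndufc2 (-0.55). Assembly factors correlated with subunits at a median of 0.18.

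**Figure D3:**
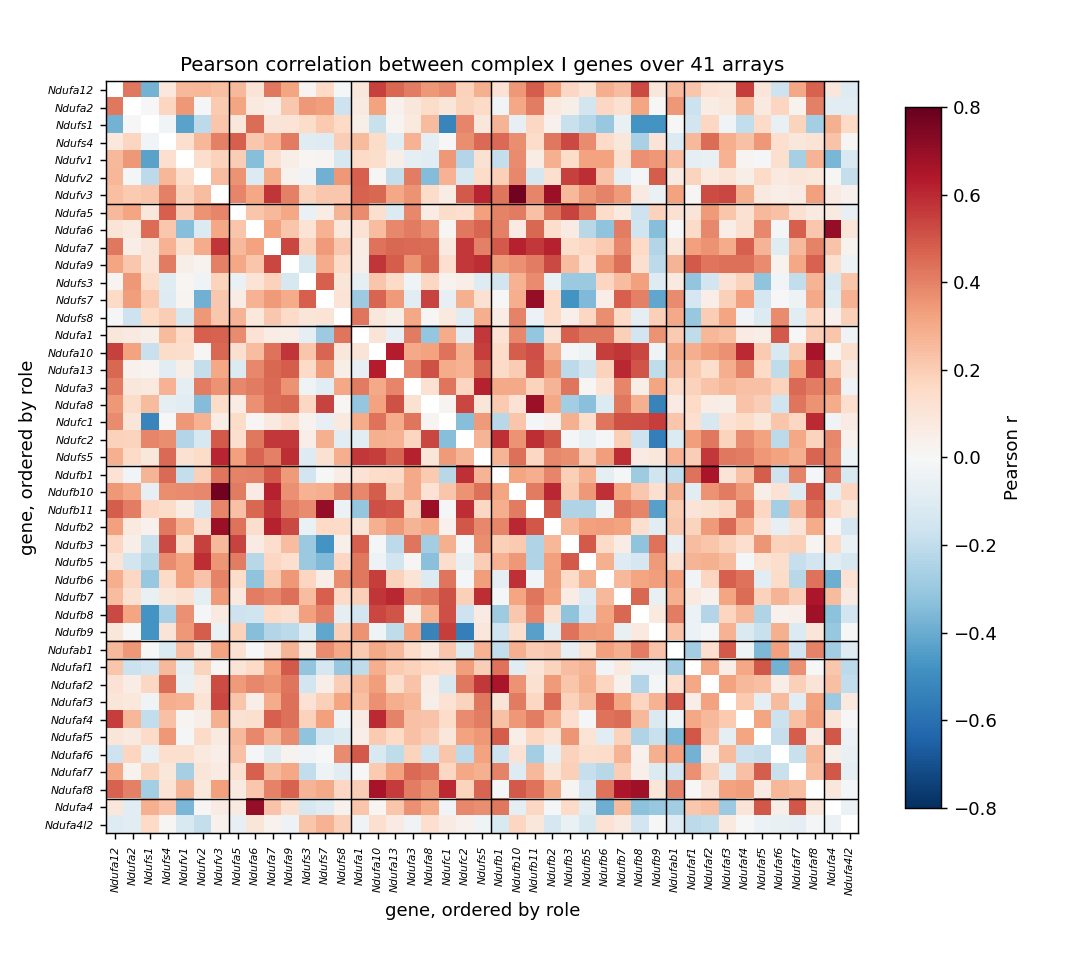
Pearson correlation over 41 arrays between the 43 tested complex I genes, ordered by role, with black lines between the N module, the Q module, the proximal arm, the distal arm, Ndufab1, the assembly factors and the genes outside complex I. Red stands for positive and blue for negative values, and the diagonal is left blank. Most subunit pairs are weakly red, while the rows of Ndufs1 and Ndufb9 hold several blue cells.

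The mean of the standardized subunits followed the other complexes from mouse to mouse. Over 41 arrays it correlated with the mean level of complex III genes at r = 0.85 (Spearman 0.87) and at 0.85 without the 2 arrays farthest from the median of complex III. The values were 0.82 (0.83) for complex V, 0.70 (0.71) for complex II and 0.34 (0.36) for complex IV. Within spike-in sets 1, 2 and 3 complex III gave 0.63, 0.78 and 0.79, and complex V 0.86, 0.65 and 0.81. Complex II gave -0.19, 0.85 and 0.70, so that in set 1 with its 7 arrays the relation did not appear. Complex IV gave 0.44, 0.59 and 0.035. The 13 regulators of mitochondrial genes did not follow the subunits, with r = -0.010.

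Some lists of cell type markers varied with the subunit mean as well, in either direction, and others did not. General neuron markers gave r = -0.64 (Spearman -0.69), with -0.57, -0.78 and -0.57 within the spike-in sets. Microglia markers gave 0.69 (0.74), with 0.71, 0.50 and 0.53. Hippocampal principal neuron markers gave 0.25 (-0.032), with 0.46, 0.67 and -0.042 within the sets, and -0.14 without the 2 arrays farthest from their median. Interneuron markers gave -0.41 (-0.32), with -0.022, -0.72 and -0.11 within the sets, and -0.20 without their 2 farthest arrays. Astrocyte markers gave 0.0013, oligodendrocyte markers -0.055, endothelial markers 0.096, choroid plexus markers 0.21 and red blood cell markers -0.21. Striatum markers gave -0.35, or -0.10 without their 2 farthest arrays, and neocortex markers -0.33, or -0.20. The median raw signal of an array gave -0.15, and the 3′ to 5′ ratio of the Actb control, a sign of RNA integrity, -0.37, or -0.21 without its 2 farthest arrays. The same ratio of the Gapdh control gave -0.22, or 0.022 without its 2 farthest arrays. General neuron markers, with 5 of 5 genes tested, had mean levels of 12.08 to 12.23 in high, 12.16 to 12.33 in medium and 12.13 to 12.27 in low mice. Microglia markers, with 6 of 6 tested, had 8.33 to 8.43, 8.22 to 8.48 and 8.16 to 8.52. The part of cell composition in the subunit levels was not tested. These 21 measures were correlated with the subunit mean in all, and the values are given without p.

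**Figure D4:**
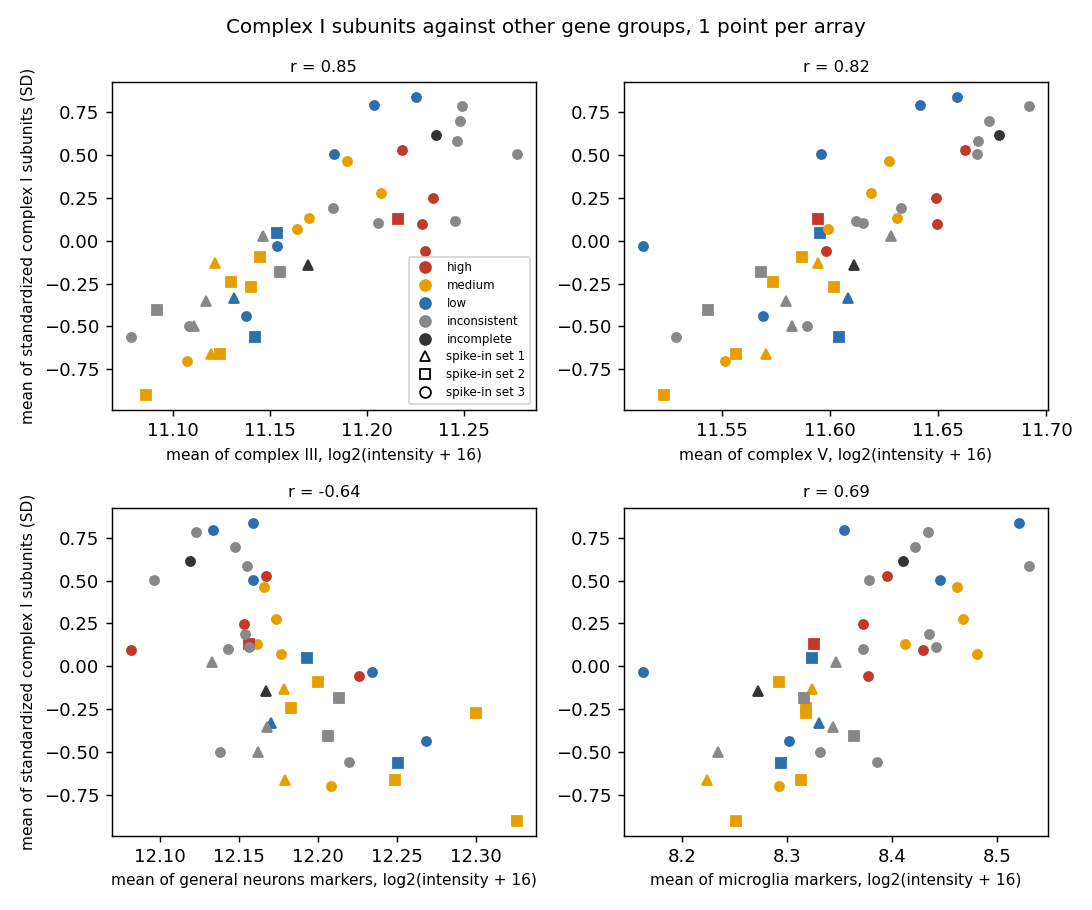
Mean of the standardized complex I subunits per array (vertical, in SD) against the mean level of complex III genes, complex V genes, general neuron markers and microglia markers (horizontal, log2(intensity + 16)), 1 point per mouse, with colours for the cognition groups and shapes for the spike-in sets. The points rise along complexes III and V (r = 0.85 and 0.82) and microglia markers (0.69), fall along neuron markers (-0.64), and the 5 high mice lie in the middle and upper part of the range.

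Outside the family, the genes most like the subunit mean were Atraid (r = 0.87), Micos13, a component of the cristae-organising complex of mitochondria (0.84), Trappc2l (0.83), Dnajc15, a cochaperone of the mitochondrial inner membrane (0.82), Mrpl11, of the mitochondrial ribosome (0.78), and Higd2a (0.78). Pearson r over 41 arrays was the measure of likeness. Within spike-in set 2 the Dnajc15 value was 0.45, and the other 5 genes stayed between 0.65 and 0.85 there.

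Probe sets of the same gene set a limit to what single members show. Of the members, 21 had more than 1 tested probe set, and over 35 pairs with the brightest set the median r was 0.27. It was below 0 in 4 of the 35 pairs. Counting all pairs of tested probe sets, 5 genes had 1 or more below 0, namely Ndufa10, Ndufa12, Ndufab1, Ndufv2 and Ndufaf4. By the median r with the brightest set, Ndufb2 (0.80) and Ndufa3 (0.70) were highest. Ndufa12 differed by 0.03 ± 0.04 in high against low on its brightest set and, on its other tested sets, by -0.04 ± 0.05 and by 0.20 ± 0.08, the larger with an adjusted limma p of 0.553.

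**Figure D5:**
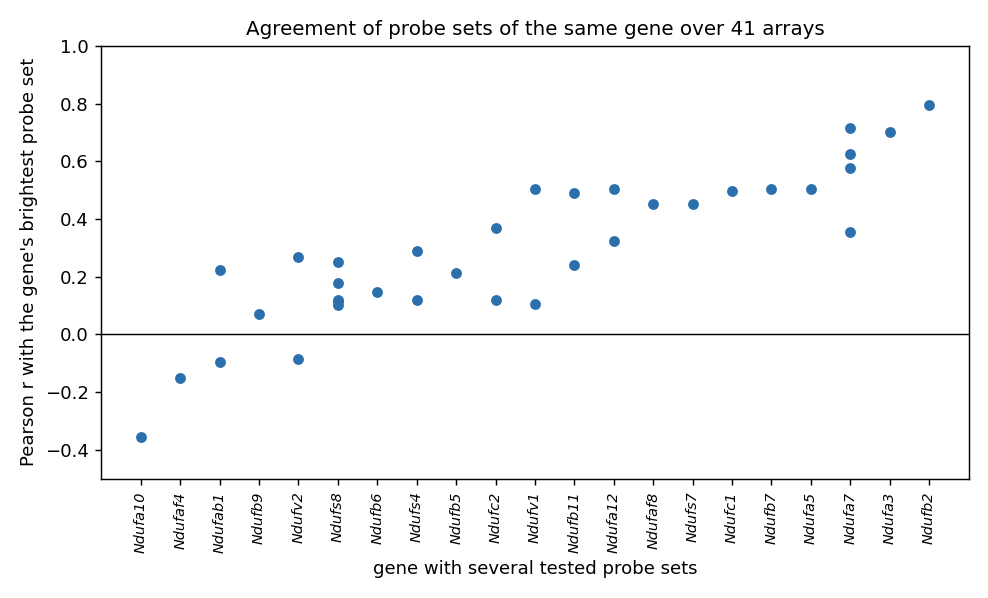
Pearson r over 41 arrays between the brightest probe set of a gene and each other tested probe set of the same gene, for the 21 complex I genes with several, ordered by their median. Values run from -0.36 for Ndufa10 to 0.80 for Ndufb2.

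The 2 genes that carry the name but stand outside complex I gave no calls either. Ndufa4 read 11.56, 11.70, 11.74, 11.65 and 11.61 in high mice, against 11.39, 11.56 and 11.63 in medium mice, a difference of 0.10 ± 0.05 with an adjusted limma p of 0.349. Ndufa4l2, a gene induced by hypoxia, read 5.20, 5.93, 5.80, 5.45 and 5.96 in high mice, against 5.74, 5.87 and 6.02 in low mice, close to the lower limit of the tested range. Its difference was -0.21 ± 0.12 with an adjusted limma p of 0.688.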

How the data were processed

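RNA from 41 hippocampi was hybridised to 1 array each. The deposited files hold intensities of probe sets on a linear scale, as read from the values themselves (0.0112 to 13549, with array medians of 22.4 to 55.2). Partek and RMA are the tools listed, unversioned, in the submitters' processing notes, and no source used here gives the role of each. A log2 scale had been assumed when the test was planned, so the intensities were first brought to a common distribution by quantile normalization of all 41 arrays and then taken as log2(intensity + 16). Of 45037 probe sets that are not array controls, the 22519 at or above the median of the mean intensity were tested. Of these 45037, 34945 carry 1 gene symbol in the platform annotation, 932 several, and none was named from several. All 44 members were found in the reference gene table.

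Limma fits (version 3.58.1, R 4.3.3) covered the 25 ranked arrays. The group means came from 1 fit, and the slope over classes coded 1, 2 and 3 from a separate one. In both, p-values were adjusted by Benjamini-Hochberg over all tested probe sets. The labels call each array a separate mouse. Inconsistent replicate 2 is also described as consistently medium, and it stayed in its group. No spike-in set is named in the labels. The 3 sets came from clustering 42 spike-in probe sets, and their number was fixed rather than found. The same-number correlations between groups ran from -0.17 to 0.096, so replicate numbers did not pair the mice. Members, lists, roles and tests were chosen with earlier results of these data known. Named genes were the members with the smallest p in each direction (3 subunits, 2 assembly factors), every member with an unadjusted p under 0.05, the nuclear core subunits, those with the largest and smallest SD, all assembly factors, genes with disagreeing probe sets, and the 6 genes most like the subunit mean. Of the steps, only the limma fit of high against low and high against medium was tried on simulated data. Those were log2 values with independent normal noise and known changes, and the pass mark concerned only the largest change. Normalization, the trend, the correlations, the motif search and the spike-in clustering were not simulated.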

Additional observations from a re-analysis of the deposited data

Results flagged for a closer look

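In groups of 5 and 8 mice, 10 of the 88 gene and group combinations held 1 mouse far from the others by Dixon's 95% criterion, and chance alone gives about 1 in 20. Low replicate 5, the array with the lowest median signal, gave 4 of them. Its level was 8.06 for Ndufb1 (nearest other low mouse 7.63), 10.77 for Ndufb3 (10.63), 10.84 for Ndufb8 (11.28) and 8.55 for Ndufaf5 (8.37). Of the other low mice, replicate 8 stood at 10.87 for Ndufa9 (nearest 10.76), replicate 6 at 8.98 for Ndufaf4 (8.84) and replicate 7 at 7.88 for Ndufaf6 (7.38). Among high mice, replicate 5 stood at 10.64 for Ndufab1 (10.74) and 8.87 for Ndufaf8 (9.08), and replicate 2 at 8.27 for Ndufaf5 (8.46). No group effect was tested against another group's effect.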

How the results depend on the processing

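All 4 comparisons were rerun under 17 other settings and by leaving out each of the 25 ranked arrays, as far as each applied, and 0 members passed the threshold in any of them (smallest adjusted limma p 0.0948). The median over subunits moved by more than the SD between mice with arrays centred on their medians, to 0.10 in high against low, 0.097 in high against medium and 0.042 for the trend, and without normalization, to -0.086 in high against medium and 0.081 in medium against low. Leaving out 1 array moved it between -0.0083 and 0.023 in high against low, 0.029 and 0.056 in high against medium, -0.039 and -0.018 in medium against low, and -0.012 and 0.0044 for the trend. Replicate numbers as a block changed no call, with medians of 0.040, 0.069 and -0.031 in these pairs. Of 1640 refitted values of 40 named differences, 44 changed sign and 0 became calls. The cause was not tested.

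Without normalization the high against medium differences were -0.040 for Ndufa6, -0.028 for Ndufa7, -0.033 for Ndufa9, -0.018 for Ndufaf1 and -0.050 for Ndufaf5, and the medium against low ones 0.018 for Ndufa3, 0.043 for Ndufa6, 0.038 for Ndufa7 and 0.049 for Ndufaf3. With centred arrays Ndufa1 and Ndufv1 gave 0.043 and 0.018 in high against low, Ndufb9 0.036 in high against medium, and Ndufab1 and Ndufv1 0.014 and 0.011 for the trend. Within spike-in set 2, which holds 1 high mouse, high against low was 0.0021 for Ndufa1, 0.12 for Ndufaf6 and 0.048 for Ndufs8, high against medium -0.0017 for Ndufa6, 0.0086 for Ndufaf3 and 0.025 for Ndufv1, medium against low -0.021 for Ndufa10, 0.012 for Ndufa3, 0.024 for Ndufa6 and -0.017 for Ndufaf4, and the trend -0.0030 for Ndufa10 and 0.034 for Ndufaf6. Within set 1 medium against low was 0.0024 for Ndufa7, -0.15 for Ndufaf4 and -0.062 for Ndufb8. Averaging all probe sets of a gene gave 0.027 for Ndufs8 in high against low and 0.0097 for its trend, 0.0012 and -0.0057 for Ndufb6 in high against medium and medium against low, and -0.00025 for Ndufa10 in medium against low. Without arrays of bright choroid plexus markers Ndufaf6 gave 0.0056 in high against low and 0.0028 for the trend, and Ndufaf3 0.0010 in medium against low. The replicate block gave 0.031 for Ndufaf3 in high against medium and -0.0054 for Ndufaf4 in medium against low, and inconsistent replicate 2 as medium -0.0027 for Ndufaf8. Leaving out 1 array gave -0.0011 to 0.029 for Ndufa10, -0.0081 to 0.051 for Ndufaf4 and -0.033 to 0.061 for Ndufaf8 in medium against low.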
